A study of Mus musculus with 6 samples.

Results

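Pantothenate kinase genes and the sterol gene Srebf2 carry miRNAs in their introns, and 4 of these miRNAs, mmu-miR-103-3p, mmu-miR-107-3p, mmu-miR-33-5p and mmu-miR-33-3p (called without the species prefix from here on), were followed in small RNAs bound to Argonaute in mouse brain at 2 ages. Argonaute (Ago) binds a small RNA within the RNA-induced silencing complex (RISC) and is led by it to target transcripts. A read sequence was taken as a member when its miRNA label in the deposited table named 1 of the 4. This gave 719 of 143934 read sequences, and 4 of 1091 miRNA labels. They were 247 sequences labelled miR-103-3p, 304 labelled miR-107-3p, 145 labelled miR-33-5p and 23 labelled miR-33-3p.

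The study compared the cortex and hippocampus, combined, of BL6 mice of 2 months (2M, 3 libraries) and of 18 months (18M, 3 libraries), which bears on whether the small RNAs in the RISC change with age. Per the study's methods the mice were male C57BL/6J, and no transgene or treatment is named for them. Ago proteins were pulled down with a peptide of GW182, their RNA was size-selected on a gel, and short reads were sequenced (Ago-RP-Seq). Values are in RPM, reads scaled to a common total in every library, so each is a share of the Ago-bound reads, and fewer cells of a type and less RNA per cell cannot be told apart in them. The labels number the libraries as replicates and do not name the animals, so p-values measure the spread between these samples, which may be technical.

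As background, miR-103 and miR-107 sit in introns of the pantothenate kinase genes, whose enzymes start the synthesis of coenzyme A, and they are known for their effects on insulin sensitivity and on Dicer. They belong to a group with miR-15 and miR-16, miRNAs that share bases at or near the seed, the stretch near the 5′ end that pairs with a target. Mir33 sits in an intron of Srebf2, which encodes a transcription factor that turns on cholesterol synthesis, and miR-33-5p is known for repressing Abca1, a pump that exports cholesterol from cells. The strand named 5p or 3p is the one from the 5′ or the 3′ arm of the hairpin.

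In the annotation of GRCm38, each of the 4 hairpins lay on the strand of its host, within an intron and over no exon. Mir103-1 (chr11:35782396-35782481, plus strand) was in intron 5 of 6 of Pank3, and Mir103-2 (chr2:131288052-131288137, plus strand) in intron 5 of 6 of Pank2. Mir107 (chr19:34820687-34820773, minus strand) was in intron 5 of 6 of Pank1. Mir33 (chr15:82198122-82198190, plus strand) was in intron 16 of 18 of Srebf2. Intron numbers are those of a principal transcript of each host.

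The mature sequences below, from RefSeq on GRCm38.p6, are shown because the seed and the base near the 3′ end decide which reads can be told apart. Capitals mark the seed, bases 2 to 8.
miR-103-3p: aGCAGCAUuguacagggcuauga
miR-107-3p: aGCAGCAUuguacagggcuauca
miR-33-5p: gUGCAUUGuaguugcauugca
miR-33-3p: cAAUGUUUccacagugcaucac
Counted from 1 at the 5′ end, miR-103-3p and miR-107-3p differed at 1 of 23 positions (G22C, the base of miR-103-3p first), so they shared their seed and a read that ends before position 22 cannot be given to either. The mature sequence of miR-103-3p was identical at both of its loci, whose hairpins first differ at position 25 counted from the same start. Reads long enough to show that difference were 1 sequence of Mir103-1 (mean 0.216 RPM) and 1 of Mir103-2 (mean 2.69 RPM), so almost nothing in miR-103-3p could be assigned to Pank3 or to Pank2.

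miR-103-3p was the most abundant of the 4. Its levels were 8107, 6531 and 7627 RPM in 2M replicates 1, 2 and 3, and 8066, 5699 and 7721 RPM in 18M replicates 1, 2 and 3, which placed it at rank 37 of all miRNA labels by mean. Replicate 2 was the lowest library at each age, and the ages overlapped. The log2 fold change at 18M was -0.06 (SE 0.17, 95% confidence interval -0.47 to 0.35, limma adjusted p = 0.876), and its sign turned without 18M replicate 2 (0.094), without 2M replicate 1 (0.0046) and with median-of-ratios scaling (0.029). That scaling shifted the median log2 fold change of all labels by 0.0895.

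Reads labelled miR-107-3p were at 3944, 1998 and 3403 RPM in 2M replicates 1, 2 and 3 and at 4084, 2119 and 3102 RPM in 18M replicates 1, 2 and 3 (rank 58). Again replicate 2 was the lowest at each age, and the ages overlapped. The mean and SD of 3 libraries were 3115 ± 1004 RPM in 2M against 3102 ± 983 RPM in 18M. The log2 fold change was 0.00035 (SE 0.33, 95% confidence interval -0.80 to 0.80, limma adjusted p = 0.999). With both labels added up, the Pank miRNAs lay between 7818 and 12150 RPM and had a log2 fold change of -0.05 (SE 0.21, limma adjusted p = 0.923).

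miR-33-5p varied most among the 4. It was at 794, 2657 and 1542 RPM in 2M replicates 1, 2 and 3, and at 2439, 440 and 1385 RPM in 18M replicates 1, 2 and 3 (rank 86). Each age held 1 high and 1 low library, 2657 and 794 RPM against 2439 and 440 RPM, so the ages overlapped over nearly their whole range. The highest library was 6.03-fold above the lowest. Its log2 fold change was -0.38 (SE 0.70, 95% confidence interval -2.05 to 1.30, limma adjusted p = 0.816), an interval that holds changes of 1 log2 unit in both directions. The value was 0.31 without 18M replicate 2 and 0.05 without 2M replicate 2, and -0.92 and -0.83 without 18M replicate 1 and 2M replicate 1.

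The spread of miR-33-5p was large beside that of other miRNAs. Its SD of log2 values within an age was 1.08, against a median of 0.20 over 466 labels, and 98.9% of labels had a smaller one. The SD was 0.22 for miR-103-3p, 0.50 for miR-107-3p and 0.47 for miR-33-3p. miR-33-5p rested on 10327 to 66668 reads per library, so counting error was small beside this spread. 18M replicate 2, the lowest library for miR-33-5p, also had the lowest sum of 3 erythrocyte miRNAs (1300 RPM, against 2461 to 3677 RPM in the other libraries). Its sum of 4 neuronal miRNAs was the highest (255544 RPM, against 196252 to 238187 RPM). Sums for vessels (8255 RPM), microglia and immune cells (760 RPM) and heart and muscle (188 RPM) were lowest in it too. That of oligodendrocytes was not, and the liver miRNA was highest in it. 2M replicates 1 and 2 had like neuronal sums (223491 and 222201 RPM), with miR-33-5p at 794 and 2657 RPM. The part of these sums in the level of miR-33-5p was not tested.

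miR-33-3p, the other strand of the Mir33 hairpin, was at 38.2, 21.2 and 38.5 RPM in 2M replicates 1, 2 and 3 and at 42.1, 27.9 and 53.3 RPM in 18M replicates 1, 2 and 3 (rank 353). Its lowest library, 2M replicate 2, was the one in which miR-33-5p was highest, so the strands of 1 hairpin did not keep a fixed ratio. miR-33-3p was 0.792% of both strands in 2M replicate 2 and 5.96% in 18M replicate 2, with the other libraries at 1.70% to 4.60%. The log2 fold change was 0.33 (SE 0.31, 95% confidence interval -0.43 to 1.08, limma adjusted p = 0.647), with overlapping ages.

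**Figure D1:**
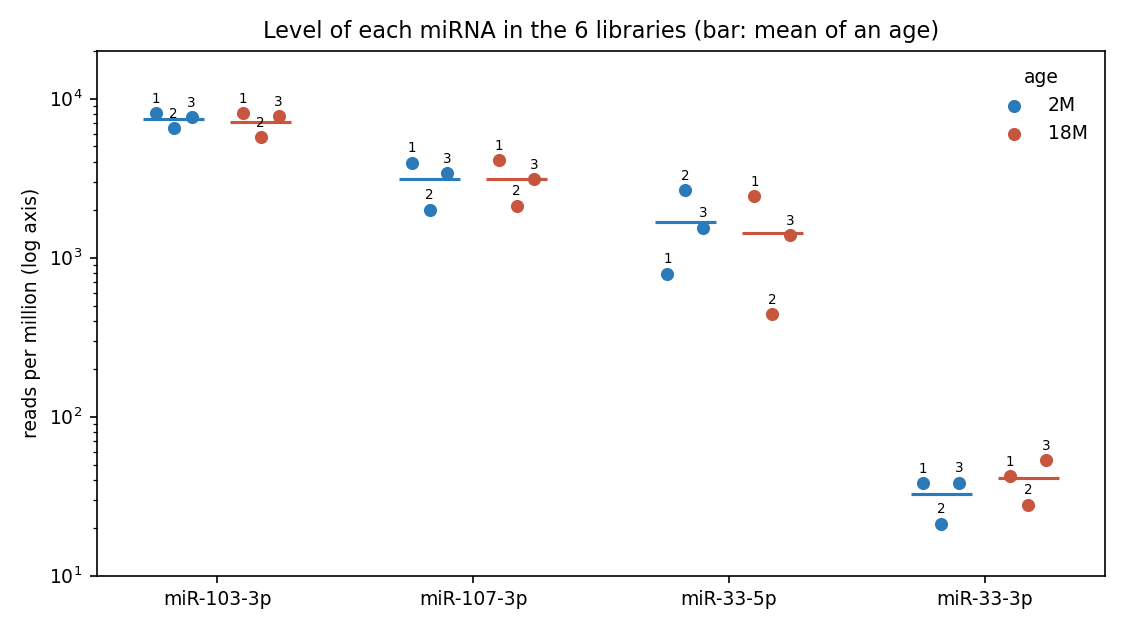
Level in RPM (log axis) of the 4 miRNAs in each library, 2M in blue and 18M in red, with the replicate number above each point and a bar at the mean of an age. The points of miR-33-5p run from 440 to 2657 RPM with both ages mixed, while those of miR-103-3p stay between 5699 and 8107 RPM.

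None of the 4 labels passed the test with limma, 0 of 4 at an unadjusted p under 0.05 as well, and in none did the ages separate. Of all 466 labels tested, 3.22% passed at an adjusted p under 0.05, 17% at an unadjusted p under 0.05, and 24% had ages that did not overlap. By level, miR-103-3p lay above the 3 others in every library. The ranges of the miR-107-3p label (1998 to 4084 RPM) and miR-33-5p (440 to 2657 RPM) overlapped, and in 2M replicate 2 miR-33-5p was the higher. That label also holds reads too short to be told from miR-103-3p. Reads with the base of miR-107-3p alone lay at 948 to 1666 RPM. miR-33-5p was above these in 2M replicate 2, 18M replicate 1 and 18M replicate 3. miR-33-3p was lowest in every library.

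**Figure D2:**
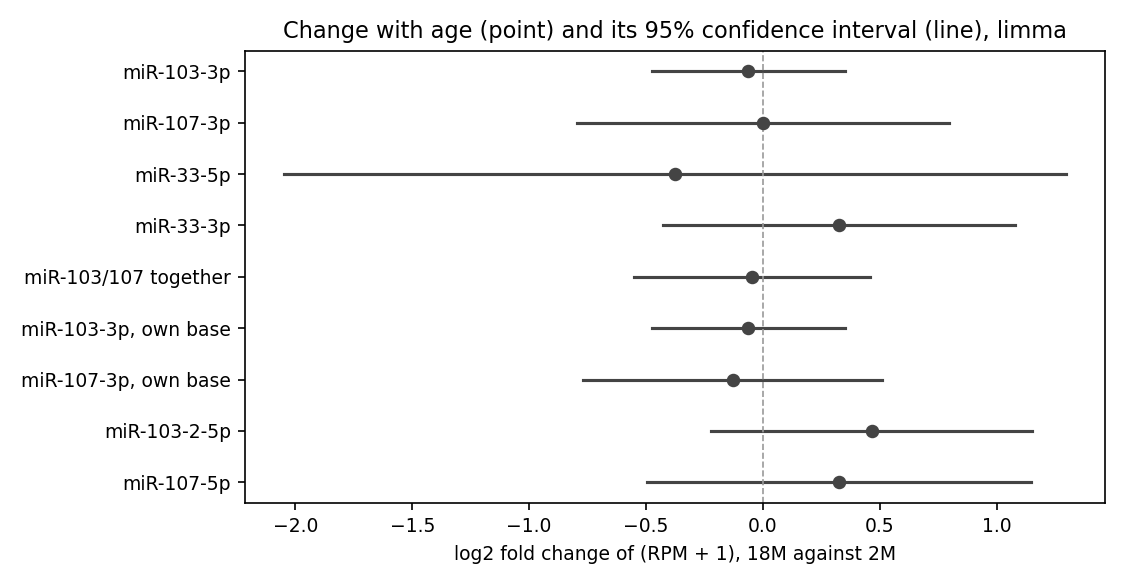
Log2 fold change at 18M against 2M of each miRNA (point) with its 95% confidence interval from limma (line). Every interval includes 0, and the one of miR-33-5p is the widest, from -2.05 to 1.30.

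The 5p strands of the Pank hairpins were rare in the RISC. miR-103-1-5p lay between 2.00 and 6.17 RPM, miR-103-2-5p between 9.29 and 21.8 RPM and miR-107-5p between 13.0 and 30.7 RPM. Together they were 0.220% to 0.557% of the reads of both arms. The log2 fold change was 0.47 (SE 0.29, limma adjusted p = 0.432) for miR-103-2-5p and 0.33 (SE 0.34, limma adjusted p = 0.680) for miR-107-5p. Leaving out 2M replicate 2 gave 0.72 and 0.61 for these strands. The lowest values were 0.27 for miR-103-2-5p, when 18M replicate 2 was left out, and 0.085 for miR-107-5p, when 18M replicate 3 was. miR-103-1-5p was under the filter of a mean of 10 RPM. It was at 4.38, 5.02 and 2.00 RPM at 2M and 5.81, 5.80 and 6.17 RPM at 18M, where the ages did not overlap, and with a filter of 1 RPM its log2 fold change was 0.59 (SE 0.26, limma adjusted p = 0.295). The mature 5p strands of the 2 Mir103 hairpins differ only in their first base, g in miR-103-1-5p and a in miR-103-2-5p. Reads within the mature strand that start after this base cannot be given to either. How such reads were labelled was not checked.

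Which of the Pank miRNAs a read came from depended on its 3′ end. The most abundant reads of the 2 labels are shown as deposited, in DNA letters, with base 22 in capitals where the read reaches it.
miR-103-3p read 1: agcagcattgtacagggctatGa
miR-103-3p read 2: agcagcattgtacagggctatG
miR-103-3p read 3: agcagcattgtacagggctatGt
miR-103-3p read 4: agcagcattgtacagggctatGat
miR-103-3p read 5: gcagcattgtacagggctatGa
miR-107-3p read 1: agcagcattgtacagggctat
miR-107-3p read 2: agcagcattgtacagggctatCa
miR-107-3p read 3: agcagcattgtacagggctatC
miR-107-3p read 4: agcagcattgtacagggctatCt
miR-107-3p read 5: agcagcattgtacagggctatT
The full-length read 1 of miR-103-3p made up 65.8% of its label, at 5722, 3972 and 5153 RPM at 2M and 5053, 3678 and 5208 RPM at 18M. Read 2, 1 base shorter, made up 15.5%, and read 3, with a T in place of the final A, 12.1%.

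Read 1 of the miR-107-3p label, 21 nt long and 42.8% of it, ends just before base 22 and is a stretch of both miRNAs. It was at 1749, 652 and 1386 RPM at 2M and at 2032, 840 and 1318 RPM at 18M. Read 5, with a T at position 22, carries the base of neither miRNA. Its levels were 134, 131 and 127 RPM at 2M and 110, 105 and 124 RPM at 18M, which did not overlap (log2 fold change -0.21, SE 0.15, limma adjusted p = 0.525).

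Reads too short to tell apart made up 37.0% to 53.3% of the miR-107-3p label and 0 RPM of the miR-103-3p label, so the deposited labels gave all such reads to miR-107-3p. A further 8.94% to 13.0% of the miR-107-3p label had another base than G or C at position 22, and 0.483% to 0.734% had the G of miR-103-3p. Reads with the C of miR-107-3p were 37.2% to 49.2%. In the second annotation column of the table, 50.9% to 62.8% of the same reads were named as Mir103-1 instead. The miR-103-3p label, by contrast, was 99.9% reads with its own G.

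Counting only reads with their own base, miR-103-3p was at 5692 to 8102 RPM and miR-107-3p at 948 to 1666 RPM. The ratio of miR-103-3p to miR-107-3p was then 4.86 to 6.64 over the 6 libraries, against 1.98 to 3.27 by the labels. The first ratio leaves out reads that end before base 22. How these divide between the miRNAs is not known, so neither is the ratio over all reads. Own-base miR-107-3p was at 1666, 984 and 1556 RPM at 2M and 1521, 948 and 1350 RPM at 18M, again lowest in replicate 2 of each age. Its log2 fold change was -0.13 (SE 0.27, 95% confidence interval -0.77 to 0.51, limma adjusted p = 0.834). The share of miR-107-3p among own-base reads was 15.7% ± 2.26 in 2M against 15.0% ± 0.804 in 18M (p = 0.7 in an exact permutation test, SD with n = 3 per age), and the share of all reads of the Pank miRNAs that could not be told apart was 12.7% ± 3.60 against 14.2% ± 3.30 (p = 0.6 in the exact test).

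**Figure D3:**
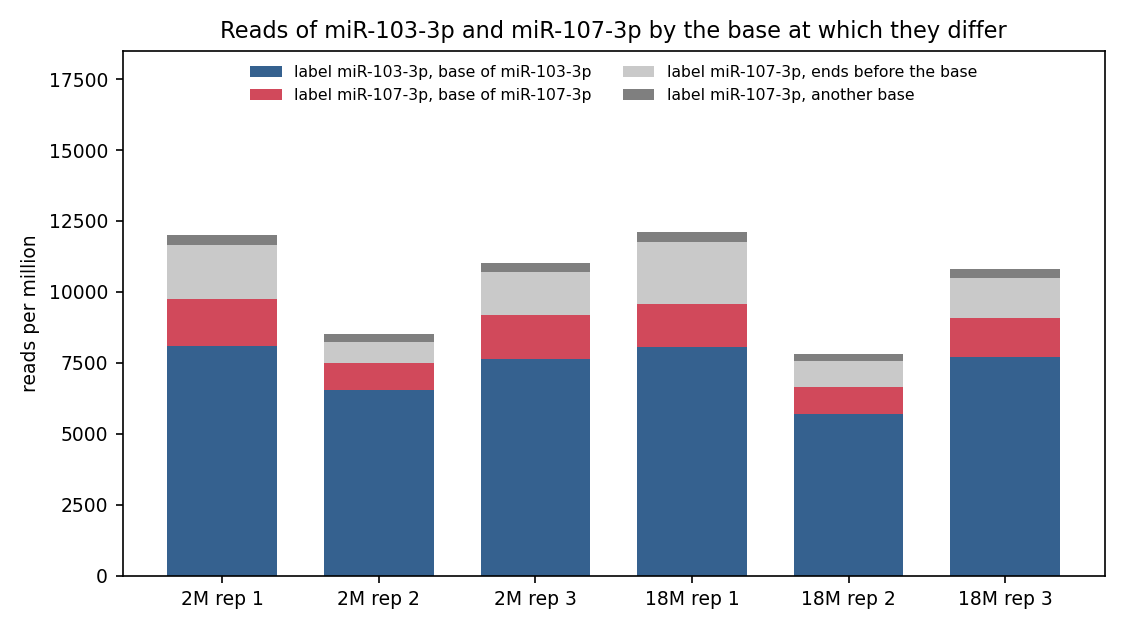
RPM of miR-103-3p and miR-107-3p in each library, stacked by label and by the base at position 22 (classes under 1% of a label are left out). Reads that end before this base, in light grey, lie between 739 and 2178 RPM, and in 2M replicate 1, 18M replicate 1 and 18M replicate 3 they outnumber the reads with the base of miR-107-3p.

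miR-103-3p and miR-107-3p also differed in how they ended. Among own-base reads from the mature start, 22-nt reads were 37.0% ± 4.94 for miR-107-3p and 16.1% ± 2.61 for miR-103-3p (SD over 6 libraries), and miR-107-3p was higher in 6 of 6 libraries (exact sign-flip permutation test over libraries, p = 0.03125, the smallest p this test allows, 0.0391 adjusted over the 10 such comparisons made). The share of own-base reads with a tail, 1 to 3 bases at the 3′ end that the hairpin does not hold, was 14.8% ± 2.20 and 15.8% ± 1.70, and the difference was not larger than its spread (exact sign-flip permutation test, p = 0.406). Own-base reads hold no tail that begins at base 22, so tails that begin there were not compared. Over the whole labels, most of the tails were a single T, in RNA a U. It was on 12.5% to 16.4% of reads labelled miR-103-3p and 7.08% to 14.3% of those labelled miR-107-3p. The latter include read 5, which carries the base of neither miRNA. They also include reads too short to tell apart, of which the miR-103-3p label holds none, so these ranges are not of like reads.

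Reads of 24 nt or more were 4.25% ± 0.334 of miR-103-3p and 4.06% ± 0.169 of the pooled reads of all other miRNAs (SD over 6 libraries, exact sign-flip permutation test, p = 0.375). For miR-107-3p they were 1.85% ± 0.269, lower than in that pool in 6 of 6 libraries (exact sign-flip permutation test, p = 0.03125, adjusted 0.0391). Reads of both miRNAs that end before base 22 counted under this label, which lowers its share, and none counted under miR-103-3p. The test thus cannot tell whether miR-107-3p itself had fewer long reads.

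The Srebf2 miRNA ended differently from the Pank miRNAs. The read sequences of Mir33 that the counts turn on are shown with a base that is not in the hairpin in capitals.
miR-33-5p read 1: gtgcattgtagttgcattgc
miR-33-5p read 2: gtgcattgtagttgcattgca
miR-33-5p read 3: gtgcattgtagttgcattgcaA
miR-33-5p read 4: gtgcattgtagttgcattg
miR-33-5p read 5: gtgcattgtagttgcattgcat
miR-33-3p read 1: caatgtttccacagtgcatca
miR-33-3p read 2: caatgtttccacagtgcatcaT
miR-33-3p read 3: caatgtttccacagtgcatc
The annotated mature miR-33-5p is read 2, of 21 nt, and was 17.8% of its label. A read 1 base shorter made up 54.1%, the read of 22 nt with an added A 15.3%, and the read of 19 nt 7.78%.

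Most reads of miR-33-5p were thus short for a miRNA. Reads of 20 nt or less were 54.6%, 57.3% and 81.4% of it in 2M replicates 1, 2 and 3, and 65.4%, 58.3% and 58.0% in 18M replicates 1, 2 and 3. Over the pooled reads of all other miRNAs the share was 10.7% to 12.2%. The difference was 51.0 percentage points on average and had the same direction in 6 of 6 libraries (exact sign-flip permutation test, p = 0.03125, adjusted 0.0391). Mean length at 2M and 18M was 20.4 ± 0.260 and 20.6 ± 0.0910 nt for miR-33-5p (exact permutation test, p = 0.5), 22.9 ± 0.0314 and 22.9 ± 0.0250 nt for miR-103-3p (p = 0.9) and 21.9 ± 0.0434 and 21.8 ± 0.0665 nt for miR-107-3p (p = 0.5; SD, n = 3).

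**Figure D4:**
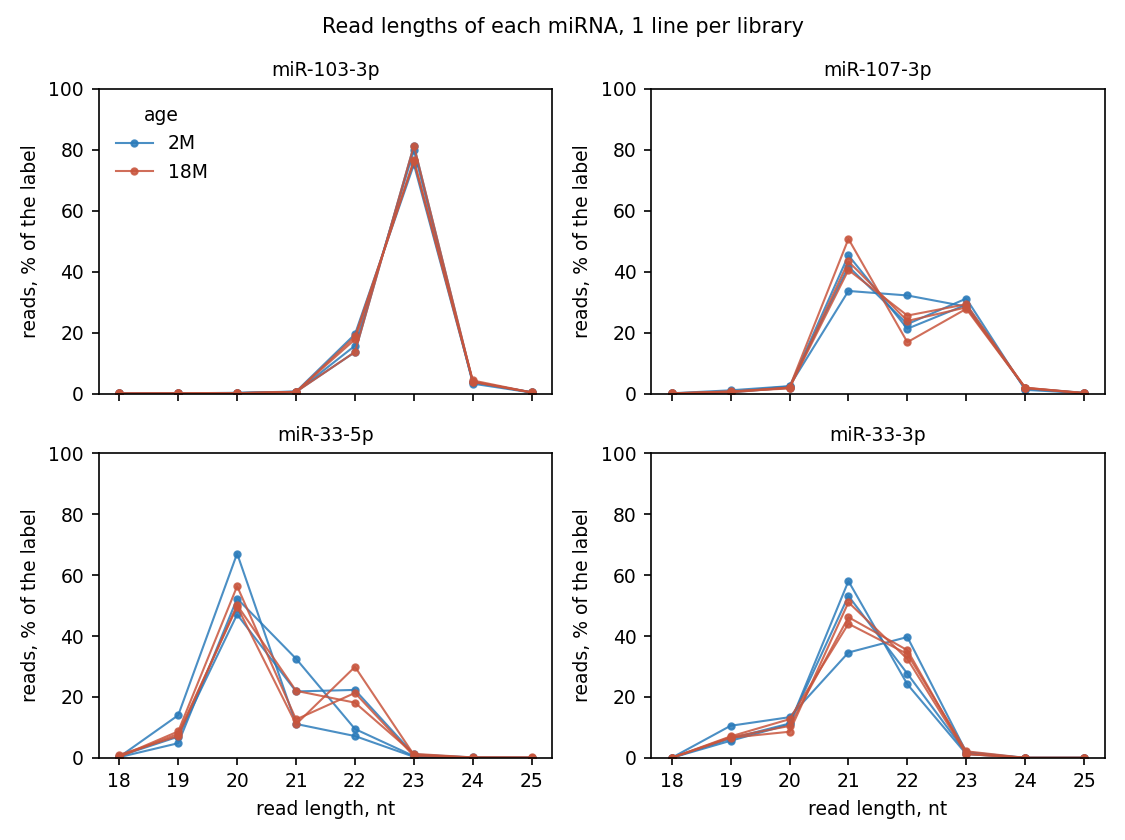
Length of the reads of each miRNA, as percent of its label, with a line for each library (2M blue, 18M red). miR-103-3p peaks at 23 nt (75.2% to 81.4%) and miR-33-5p at 20 nt (47.1% to 67.1%), and at the main length of each miRNA the ages overlap. Reads of the Pank miRNAs that end before base 22 all count under miR-107-3p, so both of these profiles depend on the labelling.

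Among added bases that the hairpin does not hold, the most frequent was also another one. The hairpin goes on with a U after the mature miR-33-5p, and the templated read of 22 nt was at 1.58 to 18.4 RPM, while the one with an A at that place was at 164, 215 and 98.5 RPM in 2M replicates 1, 2 and 3 and at 491, 72.9 and 380 RPM in 18M replicates 1, 2 and 3. Reads with a single added A were 17.2% ± 8.34 of miR-33-5p and 0.862% ± 0.0740 of the Pank miRNAs (SD over 6 libraries), higher for miR-33-5p in 6 of 6. Those with a single added T were 0.912% ± 0.475 and 13.5% ± 1.54, lower for miR-33-5p in 6 of 6 (exact sign-flip permutation test, p = 0.03125 for each, adjusted 0.0391). Base 23 of each Pank 3p strand and the base after it are A, so an A added at these places counted as in the hairpin. A T added to read 2 of miR-33-5p counted so as well. Both comparisons thus leave out added bases that match the hairpin, and the test cannot tell how often each base was added. On the rare miR-33-3p, in contrast to miR-33-5p of the same hairpin, a single added T was the more frequent, on 22.2% to 30.5% of reads, against 2.37% to 6.53% with an added A.

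By age, a tail was found on 14.0% ± 8.46 of miR-33-5p reads in 2M against 25.2% ± 6.05 in 18M (SD, n = 3 per age). In replicates 1, 2 and 3 the shares were 23.7%, 10.2% and 8.21% at 2M and 22.3%, 21.1% and 32.2% at 18M. 2M replicate 1 lay within the 18M libraries, so the ages overlapped. The exact permutation test gave p = 0.3 (adjusted 0.77 over 11 measures), and with 3 against 3 it cannot go below 0.1. For the Pank miRNAs the share was 16.1% ± 2.30 and 16.6% ± 0.260 (p = 0.7 in the exact permutation test). Single read sequences of miR-33-5p went both ways. Read 3, with the added A, had the highest log2 fold change of the reads shown (0.65, SE 0.70, limma adjusted p = 0.701) and read 2, the annotated form, the lowest (-0.90, SE 0.72, limma adjusted p = 0.597). The value of read 3 was 0.14, 1.503 and 0.32 without 18M replicates 1, 2 and 3 and 0.35 without 2M replicate 3. Read 2 reached 836 RPM in 2M replicate 2, against 85.8 to 285 RPM elsewhere, and without that library the log2 fold change came to -0.10. It was -1.38 without 18M replicate 1 and -0.52 without 18M replicate 2.

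**Figure D5:**
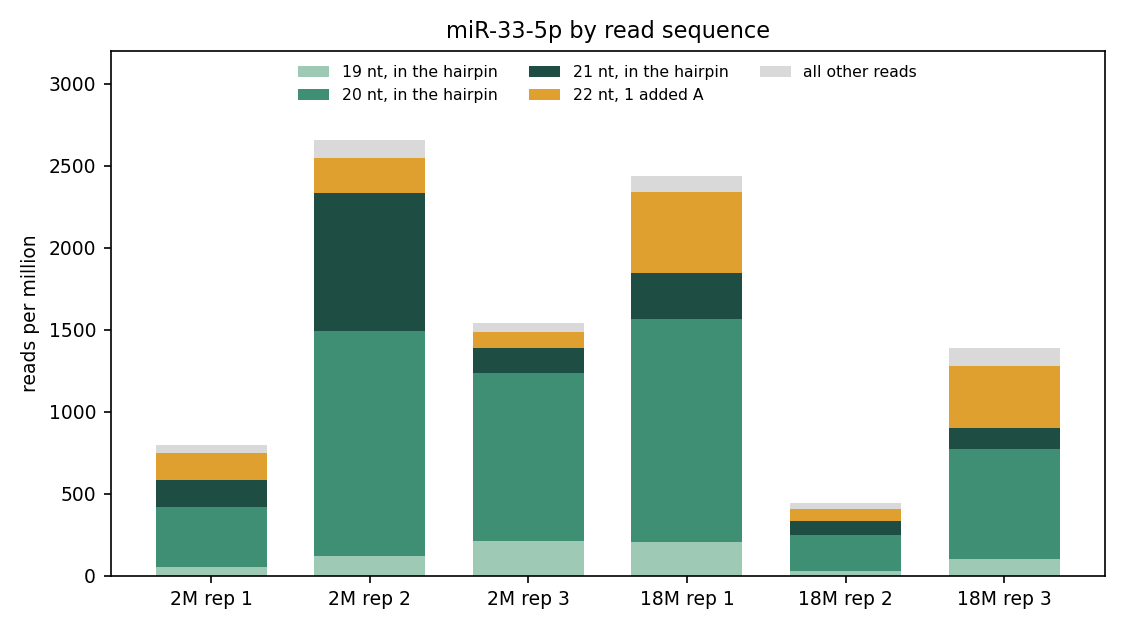
RPM of miR-33-5p in each library, stacked by read sequence. The read of 20 nt is the largest part of every bar (217 to 1372 RPM), and the read of 21 nt reaches 836 RPM in 2M replicate 2 only.

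Of the 719 read sequences, 26 had a mean of at least 10 RPM and were tested. None passed at an adjusted p under 0.05 (0 of 26 with limma, 1 of 26 at an unadjusted p under 0.05), where 0.366% of all 3281 tested sequences passed the first and 13% the second threshold. In 2 of the 26 the ages did not overlap, against 21% of all sequences tested. Log2 fold changes of the 26 lay between -0.90 and 0.65 with a median of -0.04, and the median over all sequences was 0.02.

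The 5′ end, which sets the seed, was nearly uniform. Reads from the mature start made up 97.6% to 98.1% of miR-103-3p, 98.0% to 98.7% of miR-107-3p, 97.3% to 99.0% of miR-33-5p and 90.6% to 95.02% of miR-33-3p. A seed other than the main one was carried by 2.60% ± 0.165 of miR-103-3p, 2.00% ± 0.254 of miR-107-3p and 1.94% ± 0.699 of miR-33-5p reads (SD over 6 libraries). Over the pooled reads of all other miRNAs it was 7.86% ± 0.199, higher in 6 of 6 libraries than each of the 3 (exact sign-flip permutation test, p = 0.03125, adjusted 0.0391). Abundant miRNAs weigh most in this pool, and how the 3 stand among single miRNAs was not tested. On miR-33-3p, a start 1 base downstream accounted for 4.73% to 9.02% of reads.

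Shifted starts of the Pank miRNAs were 2.05%, 2.34% and 2.02% of reads in 2M replicates 1, 2 and 3 and 1.84%, 1.91% and 1.84% in 18M replicates 1, 2 and 3. This was the single measure of the 11 compared in which the ages were apart (p = 0.1 in an exact permutation test, as low as 3 against 3 can go, adjusted 0.77). A start 1 base upstream gives the Pank miRNAs the 6mer seed AGCAGC of miR-15 and miR-16, but such reads were 0.150% to 0.265% of all reads with this seed, which held 18462 to 20237 RPM.

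Each 6mer seed, read positions 2 to 7, carries a viability in the deposited data. It is the percent viability of cells transfected with an siRNA with that seed, averaged by the authors over 3 mouse cell lines. It was 42.4% for GCAGCA of miR-103-3p and miR-107-3p, 51.0% for AAUGUU of miR-33-3p and 87.0% for UGCAUU of miR-33-5p. Members made up nearly all reads with the first and the last of these seeds, 96.0% to 97.2% of GCAGCA and 98.2% to 98.8% of UGCAUU. Of AAUGUU they made up 16.6% to 38.5%, since miR-409-3p shares it. The mean viability over the members' reads was 49.0% ± 3.94 in 2M against 47.6% ± 2.49 in 18M (p = 0.6 in an exact permutation test, SD with n = 3 per age). It was highest, 53.2%, in 2M replicate 2 and lowest, 45.1%, in 18M replicate 2, the libraries with the most and the least miR-33-5p.

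Other miRNAs of the group that miR-107 forms with miR-15 and miR-16 were counted as a list of 7. With limma, 1 of 7 passed at an adjusted p under 0.05, where 3% of all labels passed as lower. This was miR-322-5p, which fell with age (284 ± 21.04 RPM in 2M, 131 ± 31.1 RPM in 18M, SD, n = 3). Its log2 fold change was -1.14 (SE 0.19, limma adjusted p = 0.0311). It was at 265, 306 and 279 RPM in 2M replicates 1, 2 and 3 and at 156, 96.1 and 141 RPM in 18M replicates 1, 2 and 3, and its adjusted p was 0.0753 to 0.107 without any library other than 18M replicate 2, 0.0670 with a filter of 100 RPM, 0.0550 with none, and 0.149 with the replicate number as a block. The highest log2 fold change was that of miR-16-5p (0.16, SE 0.10, adjusted p = 0.432), the most abundant of the list. The median of the list was -0.07, as was that of all labels.

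Of 14 further miRNAs known for acting on genes of cholesterol or lipid metabolism, 13 were tested and 0 passed with limma, 5 with a positive and 8 with a negative log2 fold change. Over all 466 labels 3.22% passed, and 179 had a positive and 287 a negative value. The 14th, the liver miRNA miR-122-5p, was under the filter at 6.17 to 7.68 RPM. miR-148a-3p had the lowest value (-0.74, SE 0.16, adjusted p = 0.0619, and 0.0039 with DESeq2 on the recovered reads), with 418, 346 and 324 RPM at 2M and 249, 186 and 218 RPM at 18M. miR-106b-5p had the highest (0.28, SE 0.35, adjusted p = 0.726). The median was -0.05.

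Over the 6 libraries, the levels most like that of miR-103-3p were those of miR-27a-3p (Pearson's r of log2 values 0.986), miR-582-5p (0.970) and miR-15a-5p (0.964). For miR-107-3p they were miR-674-3p (0.950), miR-582-5p (0.930) and miR-324-3p (0.929), for miR-33-5p miR-410-3p (0.972), miR-1843a-5p (0.962) and miR-300-3p (0.951), and for miR-33-3p miR-7a-1-3p (0.961), miR-324-3p (0.953) and miR-30b-5p (0.951). These are descriptions, the highest of 462 labels compared over 6 points that share library and scaling.

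Libraries held 19272046 to 25080484 reads. Among marker miRNAs, 4 neuronal miRNAs summed to 196252 to 255544 RPM, 3 of oligodendrocytes to 6659 to 13932 RPM, 4 of microglia and immune cells to 760 to 983 RPM and 3 of vessels to 8255 to 14364 RPM. Those of heart and muscle, 3 in number, summed to 188 to 350 RPM, and the liver marker was at the level given above. No marker was at 0 in every library, and for each list the ages overlapped.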

How the data were processed

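Ago-bound small RNAs of 6 libraries were analysed. Per the study's methods, the authors trimmed the reads, collapsed identical ones, removed rare ones, annotated the rest against mouse small RNAs in the SPOROS pipeline and scaled every library to the same total, which gives RPM. The submitters' processing notes name Trim Galore, and versions are not given in the sources used here. The deposited RPM values were read per sequence. All values (100%) lay within 0.05 reads of a whole multiple of 1 read, so whole reads were recovered (19272046 to 25080484 per library, a floor of 3 reads at 0.120 to 0.156 RPM). The viability column, in percent, is the authors' own value.

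Groups came from the labels. Reads were summed per miRNA label, and labels and single sequences that averaged 10 RPM or more were tested with limma 3.58.1 (eBayes with trend, R 4.3.3) on log2(RPM + 1), with Benjamini-Hochberg adjustment over the whole table and a threshold of 0.05. Fold changes on this scale understate the change of low features. The fit was first run on simulated counts with known changes. Reads were placed on the RefSeq hairpins of GRCm38.p6, and a tail was 1 to 3 final bases not in the hairpin. The files' own coordinates were not used, since they name another build. Shares per library were compared between ages by an exact two-sided permutation test (11 measures) and between miRNAs by an exact sign-flip test over 6 libraries (10 comparisons). Wilson 95% intervals of the shares were at most ± 0.435 percentage points for reads too short to tell in miR-107-3p, ± 0.787 for tails of miR-33-5p and ± 3.79 for the added T of miR-33-3p. Intervals and floors cover counting error only. No 2 libraries of an age agreed within sampling noise.

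Tried as alternatives were filters of 1 and 100 RPM and none, a pseudocount of 0.1 or 5, median-of-ratios scaling, edgeR 4.0.16 and DESeq2 1.42.0 on recovered reads, no trend, a replicate block, other choices of reads, and leaving out each library. Adding up both Pank labels and counting a read for each of several labels were chosen after seeing the data. Named were the members, the other strands of their hairpins, the 5 most abundant reads of each (3 of miR-33-3p), the called, highest and lowest miRNAs of each list, and the 3 labels most alike by Pearson's r. The members and lists were chosen with earlier results of these data known. Figures were drawn with matplotlib 3.10.9 under Python 3.11.15, with scipy 1.17.1, pandas 2.3.3 and numpy 2.4.6.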

Additional observations from a re-analysis of the deposited data

Results flagged for a closer look

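Some reads of these hairpins stood outside the miRNA labels used above. A total of 475 read sequences had no miRNA label, while the second annotation column named Mir103-1, Mir103-2, Mir107 or Mir33 for them. Their mean was 213.6 RPM (154 to 258 RPM per library), far above the floor of 3 reads (0.156 RPM in the smallest library), and 1.78% of the members' own reads. By age they averaged 215 ± 12.8 RPM in 2M against 212 ± 53.3 RPM in 18M (SD, n = 3 per age), and the ages overlapped.

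Of these, 102 sequences with a mean of 25.7 RPM were named Mir33. They were at 12.5, 44.2 and 23.1 RPM in 2M replicates 1, 2 and 3 and at 43.2, 7.51 and 23.7 RPM in 18M replicates 1, 2 and 3, highest and lowest in the same libraries as the reads labelled miR-33-5p.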

How the results depend on the processing

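No member passed the test in any of the 80 alternative values computed for the 4 (adjusted p 0.359 to 0.999), but the sign of the small changes was not stable. The log2 fold change of miR-103-3p was 0.029 under median-of-ratios scaling, 0.021 with edgeR and 0.034 with DESeq2, and -0.16 to 0.094 with a library left out. That of miR-107-3p was -0.13 with own-base reads only and -0.29 to 0.25 with a library left out, negative without 18M replicate 1, 18M replicate 3 or 2M replicate 2. Leave-one-out ranges were -0.92 to 0.31 for miR-33-5p, 0.05 to 0.57 for miR-33-3p, and -0.070 to 0.53 for miR-106b-5p. With a filter of 100 RPM miR-33-3p had no value.

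Leaving out a library turned the sign of 5 measures between the ages. The tails of the Pank miRNAs turned without 2M replicate 1 and the other 4 without 2M replicate 2, and 3 of these also turned without an 18M library (length without replicate 3, reads too short to tell without replicate 1, shifted starts without replicate 2). Their ranges were -3.07 to 0.812 percentage points for the mean viability, -0.015 to 0.016 nt for the length of miR-103-3p, -0.462 to 3.01 points for Pank miRNA reads too short to tell apart, -0.494 to 1.74 points for their tails and -0.132 to 0.662 points for shifted starts of miR-33-5p. That last measure had no value with sequences of at least 10 RPM. The other 6 measures kept their direction, but their size also moved. The difference in the miR-33-3p share ran from 0.0943 points, leaving out 18M replicate 2, to 2.22 points, leaving out 18M replicate 1. That in the own-base share of miR-107-3p ran from -1.995 (2M replicate 2 left out) to -0.0159 points (2M replicate 1 left out). Tails of miR-33-5p ran from 7.69 to 16.0 points, and shifted starts of the Pank miRNAs from -0.333 to -0.1705 points, the smaller size with 2M replicate 2 left out. Mean length ran from 0.0052 (2M replicate 3 left out) to 0.258 nt (2M replicate 1) for miR-33-5p, and from -0.071 (18M replicate 2) to -0.0059 nt (18M replicate 1) for miR-107-3p.

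The number of miRNAs called, 15, was 14 with edgeR and 43 with DESeq2 on the recovered reads, 23 with each of several labels counted, 2 under a filter of 100 RPM and 3 with no filter. With the replicate number as a block it was 1 (63 at an unadjusted p under 0.05), and 0 to 15 with a library left out. The number of read sequences called, 12, was 20 under a filter of 1 RPM. With limma it was 0 with the replicate block (348 unadjusted) and 0 in each fit without a library (258 to 564 unadjusted); edgeR on all libraries called 9. The cause of these shifts was not tested. Over all labels tested, same-numbered libraries did not deviate together (correlations -0.171, -0.222 and -0.101). With the block, the SE fell for miR-103-3p (0.17 to 0.12), miR-107-3p (0.33 to 0.13) and miR-33-3p (0.31 to 0.14). It rose for miR-33-5p (0.70 to 0.81). Whether the numbers pair the samples is not stated by the labels.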
